A study of Mus musculus with 24 samples.

Results

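*H19* silencing in white fat precursor cells at day 3 of adipogenesis (d3) was examined in 6 RNA-Seq libraries, 3 of cells transfected with a non-targeting siRNA (siCtrl) and 3 of cells transfected with an siRNA against *H19* (siH19). The cells were stromal-vascular cells of the epididymal depot, a visceral white fat (vWAT), taken from male C57BL/6 mice aged 6 to 8 weeks and given siRNA by nucleofection. Both groups then received the same differentiation cocktail of insulin, dexamethasone, rosiglitazone and IBMX, followed by rosiglitazone. No allele was modified in either group. The 6 libraries belong to a series of 24, with 3 libraries in each of 8 groups formed by depot (vWAT or interscapular brown fat, BAT), siRNA and day (d0 or d3). The deposited table lists 49452 genes, of which 13097 had an FPKM (fragments normalised for transcript length and library depth) of at least 1 in at least 3 of the 6 libraries and were tested. The other 36355 were not tested, and 23804 of them were listed at 0 in all 6 libraries.

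*H19* is an imprinted long noncoding RNA made from the maternal allele, next to the paternally expressed growth factor gene *Igf2*. White and brown fat cells share an adipogenic program led by the transcription factors PPARG and C/EBPα, which switch on lipid storage and adipokine genes, while brown fat cells add a heat-producing mitochondrial program around UCP1. The comparison asked what loss of *H19* does to this program in cells of a white depot.

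The siRNA sequences are shown because they define the perturbation and its possible seed-mediated reach. The labels of the siH19 libraries carry the number 3 after siH19, and 3 siRNAs against *H19* exist in the study, named siH19, siH19#2 and siH19#3. The study also uses the labels' form of the name for an siRNA given to fat cells, while its methods name a single oligo, called siH19, for transfection. Neither ties the number to a listed sequence, so all guide strands are given, with bases 2 to 8, the seed, in capitals.
siH19 guide: uCUUGAUUcagaacgagacgg
siH19#2 guide: uACGGAGAgacucaaagcuat
siH19#3 guide: uGGUGUUCaagaaggcuggat

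All 3 matched 1 GENCODE transcript of *H19*, 2286 nucleotides long, which lies on the minus strand of chromosome 7 in GRCm38. In the 19-base target sites below the capitals mark the bases that pair with the seed. The siH19 site lies in exon 4 at chr7:142576255-142576273 and the siH19#2 site in exon 5 at chr7:142575771-142575789. The siH19#3 site spans a splice junction, with 12 bases in exon 2 at chr7:142576613-142576624 and 7 bases in exon 3 at chr7:142576524-142576530. Each site was present in 5 of the 7 annotated *H19* transcripts. No other GENCODE gene held any of the full sense sequences.
siH19 target: gucucguucugAAUCAAGa
siH19#2 target: agcuuugagucUCUCCGUa
siH19#3 target: ccagccuucuuGAACACCa

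The targeted RNA was low in every siH19 library. *H19* measured 8.67, 8.19 and 8.90 FPKM in the siCtrl libraries and 0.327, 0.291 and 0.966 FPKM in the siH19 libraries. The groups did not overlap, and the siH19 mean was 6.15% of the siCtrl mean. On the log2(FPKM + 1) scale, which understates changes of low genes, *H19* fell by 2.68 (SE 0.17; limma, adjusted p = 0.00965). The call was lost in 6 of the 13 alternative settings, 3 of them leaving out a siCtrl library, with adjusted p-values between 0.0523 and 0.143, while the difference itself stayed between -2.57 and -3.95.

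*H19* was a scarce transcript in these cells compared with BAT cells. At d3 the siCtrl BAT libraries held 99.7, 86.4 and 83.2 FPKM of *H19*, and the siH19 BAT libraries still held 12.04, 12.1 and 16.9 FPKM. Every siCtrl vWAT library at d3 was therefore below every BAT library after knockdown. At d0 *H19* in vWAT cells was 12.3, 11.3 and 11.6 FPKM in siCtrl and 1.23, 0.630 and 1.76 FPKM in siH19. The log2 effects of siH19 on *H19* were -2.64 in BAT at d3 and -2.56 in vWAT at d0, and no difference from the effect in vWAT at d3 passed the test on that scale (limma interaction, adjusted p = 0.939 and 0.902). In FPKM the siH19 mean was 15.3% of the siCtrl mean in BAT at d3 and 10.3% in vWAT at d0, against the 6.15% in vWAT at d3.

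**Figure D1:**
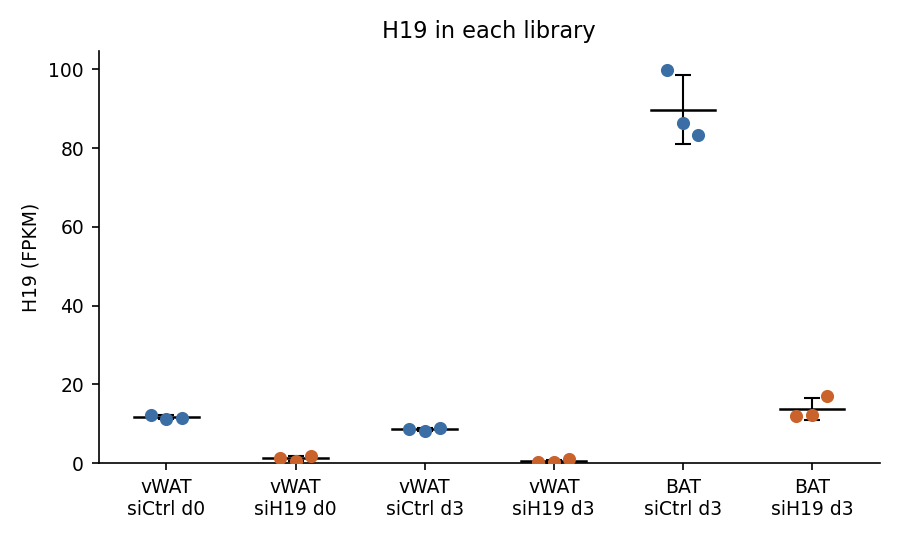
*H19* in FPKM (linear y axis) in each of 3 libraries per group for vWAT at d0 and d3 and BAT at d3. Points are libraries, horizontal lines are group means and bars are ± 1 SD; the vWAT siCtrl libraries at d3 sit between 8.19 and 8.90 FPKM, below the 12.04 to 16.9 FPKM that remained in siH19 BAT libraries.

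The cells carried the RNA of differentiating fat cells. *Fabp4*, a fatty acid carrier, was between 13958 and 16413 FPKM and *Adipoq*, the adipokine adiponectin, between 908 and 1126 FPKM in the 6 libraries. From d0 to d3 the siCtrl median of 36 mature adipocyte genes gained 2.03 on the log2 scale. The fat cell markers *Plin1*, *Cidec* and *Retn* rose over that time in siCtrl, but *Cfd* fell from a mean of 260.7 FPKM to 66.7 FPKM. *Lep*, the leptin gene, was at most 0.351 FPKM in the 6 libraries and did not pass the filter. The precursor marker *Pdgfra* was still between 77.3 and 86.9 FPKM. The brown fat genes *Ucp1* and *Zic1* were listed at 0 in all 6 libraries, while 18 of 35 brown and beige markers passed the filter. Of 13 lymphocyte markers none passed the filter, and of 14 endothelial markers 7 did. The mesothelial gene *Wt1* was present at 24.99 to 28.8 FPKM, above most of its list. The 14 mesothelial markers tested had a median level of 5.17 FPKM. Their median change from d0 to d3 in siCtrl was -1.29 on the log2 scale. The number of genes at or above 1 FPKM was 12987 to 13125 per library. Estimated depth relative to siCtrl replicate 1 was 0.974 and 1.04 in the other siCtrl libraries and 1.04, 0.913 and 1.00 in siH19. The file gives no counts, so absolute depth is unknown. The sources do not state that the 3 libraries of a group came from separate isolations, so p-values measure the spread between these libraries.

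At the level of single genes the knockdown left few marks. Calls required a change of at least 1.3-fold in FPKM + 1 and a p under 0.05 after Benjamini-Hochberg adjustment over all 13097 genes. Only 1 gene was called higher (1 of 13097, 0.00764%) and 3 were called lower (0.0229%), and they comprised *H19* and 3 short RNAs. At an unadjusted p under 0.05, 664 genes were higher (5.07%) and 651 lower (4.97%), 1315 in all. All 3 siH19 libraries were above all siCtrl libraries for 1005 genes (7.67%) and below them for 1122 (8.57%).

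The called short RNAs were at or near 0 in 1 whole group. *Gm24494* was listed at 0 in all siCtrl libraries and at 72.5, 41.2 and 37.4 FPKM in siH19. *Gm26387* measured 5.76, 11.8 and 11.1 FPKM in siCtrl and *Snora70* 2.01, 2.24 and 1.80 FPKM, and in siH19 both were listed at 0, except that *Snora70* was listed at 9.77e-28 FPKM in replicate 3. The same RNAs scattered within other groups of the series. *Gm24494* was listed at 132.7, 0 and 45.8 FPKM in the siCtrl BAT libraries at d3, and *Snora70* at 52.5, 0 and 15.5 FPKM in siH19 BAT at d0. Of 178 short RNA genes tested, 99 had a 0 in at least 1 library. With the spread estimated from all 24 libraries none of the called short RNAs kept its call (adjusted p = 0.417, 0.396 and 0.815 for *Gm24494*, *Gm26387* and *Snora70*).

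Most of the transcriptome was level. A gene was counted as held when the 95% confidence interval of its log2 difference lay wholly between -0.38 and 0.38. That is within 1.3-fold on the scale of FPKM + 1, which for low genes allows a larger change in FPKM. This was so for 8971 of 13097 genes (68.5%). The middle 90% of differences ran from -0.26 to 0.22, with a median of -0.005. On the same scale 9737 genes (74.3%) were within 10% of siCtrl. The median SE was 0.0849. Holding depended on level, with 92.1% of 1264 genes at a mean of 100 FPKM or more held, 80.9% of 6095 genes at 10 to 100 FPKM and 50.1% of 5738 genes below 10 FPKM. Of the short RNAs 3.37% were held.

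Among the most abundant transcripts that were held, *Selenop*, the plasma selenium carrier, measured 26414, 23444 and 25398 FPKM in siCtrl and 25639, 24457 and 24602 FPKM in siH19. *Gpx3*, the secreted glutathione peroxidase, measured 15521, 15921 and 16201 FPKM against 17330, 16813 and 15707 FPKM. *Col3a1*, a fibrillar collagen chain, measured 8260, 7969 and 8904 FPKM against 8787, 7985 and 7888 FPKM. The groups overlapped for all 3. Of 29 housekeeping reference genes 27 were held, near the 92.1% of all genes at 100 FPKM or more, with a median log2 difference of 0.02. Among them *Ppia* was at 1655, 1747 and 1707 FPKM in siCtrl and 1749, 1787 and 1693 FPKM in siH19.

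A small tilt by level ran through the table. Of the 1264 genes at 100 FPKM or more, 858 were higher and 406 lower in siH19, with a median of 0.03, and 16.4% were higher at an unadjusted p under 0.05 against 3.88% lower. Genes below 10 FPKM leaned the other way, with a median of -0.02. Within the abundant genes the lean was larger for short transcripts, with medians of 0.07 for 256 genes under 1000 nucleotides, 0.04 for 560 genes of 1000 to 2500 nucleotides and 0.02 for 447 longer ones. The summed FPKM was 817819, 826036 and 816662 in siCtrl and 841456, 835581 and 834057 in siH19, without overlap. The part of transcript length and of the library sums in the shifts described next was not tested.

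**Figure D2:**
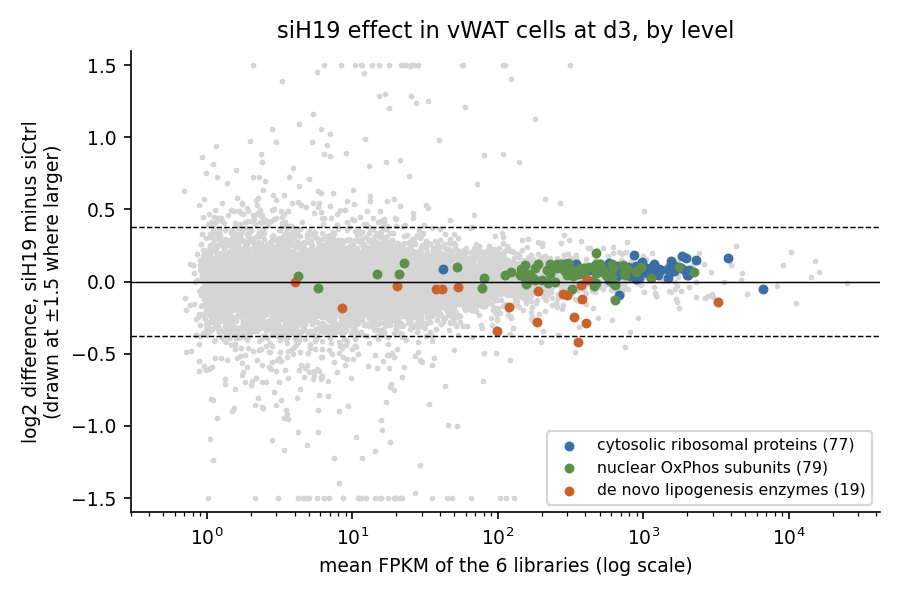
Log2 difference, siH19 minus siCtrl, of log2(FPKM + 1) in vWAT cells at d3 (y axis, drawn at ±1.5 where larger) against mean FPKM (x axis, log scale) for 13097 genes in grey, with 3 gene lists in colour. Dashed lines mark 1.3-fold; ribosomal protein and OxPhos genes sit just above 0 at the abundant end and lipogenic enzymes below 0.

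Lists of genes were described by how many members were higher or lower and by their median, beside the median of -0.005 over all 13097 genes. Of all genes 5.07% were higher and 4.97% lower at an unadjusted p under 0.05. No member of any list other than *H19* was called.

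Genes of the translation and respiration machinery leaned higher in siH19. Of 77 cytosolic ribosomal protein genes tested, 75 were higher in siH19, with a median log2 difference of 0.09. At an unadjusted p under 0.05, 37 were higher, against 5.07% of all genes, and none lower. For 48 members the siH19 libraries all lay above the siCtrl libraries, against 7.67% of all genes. Their summed level averaged 87586 ± 2529 FPKM (SD, n = 3) with siCtrl, compared with 92593 ± 597 FPKM (SD, n = 3) with siH19, 106% of siCtrl. *Rps12*, a small-subunit protein, measured 1826, 1906 and 1864 FPKM in siCtrl and 2090, 2071 and 2102 FPKM in siH19, a log2 difference of 0.16 (SE 0.028; limma, adjusted p = 0.249). *Rplp1*, a stalk protein, measured 3537, 3733 and 3614 FPKM against 4135, 3982 and 4064 FPKM. For both genes the groups were apart. *Rpl13a* went the other way, at 6463, 6902 and 6954 FPKM against 6439, 6506 and 6651 FPKM. *Rpl39* was the other lower member, and its log2 difference of -0.09 rested on siH19 replicate 3 at 471 FPKM, since the other siH19 libraries were at 760 and 757 FPKM and the siCtrl libraries at 674 to 699 FPKM. The difference was small for each gene, and 76 of the 77 were held within 1.3-fold, against 92.1% of all genes at 100 FPKM or more. Ribosomal protein genes share sequence with processed pseudogenes, and how such reads were assigned is not given in the sources used here, so single values are uncertain.

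Nuclear genes for subunits of oxidative phosphorylation (OxPhos) leaned the same way. Of 79 tested 68 were higher, with a median of 0.06, 18 higher and none lower at an unadjusted p under 0.05, and 78 held. With siCtrl they summed to 30519 ± 973 FPKM (SD, n = 3), and with siH19 to 31908 ± 886 FPKM (SD, n = 3). *Cox7b*, a cytochrome c oxidase subunit, had the largest difference, at 441, 450 and 425 FPKM in siCtrl and 546, 468 and 496 FPKM in siH19 (log2 0.19, SE 0.059). *Atp5b*, the catalytic ATP synthase subunit, measured 2292, 2221 and 2071 FPKM against 2411, 2307 and 2183 FPKM, which overlapped. *Sdha*, the flavoprotein of complex II, was lower, at 678, 682 and 652 FPKM against 665, 607 and 572 FPKM. Of 78 mitochondrial ribosome genes 56 were higher (median 0.05), led by *Mrps12* at 90.5, 85.4 and 82.0 FPKM in siCtrl and 99.2, 96.1 and 108 FPKM in siH19. The 13 mRNAs made inside mitochondria did not share the lean, with 7 higher and 6 lower and a median of 0.006. Enzymes of the TCA cycle were level, with 12 higher, 15 lower and all 27 held. Of all genes at 100 FPKM or more 92.1% were held.

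The ribosomal protein and OxPhos genes are abundant and short, which are the features that the tilt over the whole table followed. Median transcript lengths were 937 nucleotides for the ribosomal protein list and 908 for the OxPhos list. Outside these lists, 168 abundant genes under 1000 nucleotides had a median of 0.05, and 22.6% of them were higher at an unadjusted p under 0.05.

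Enzymes that build fatty acids from citrate and acetate were lower. Of 19 genes of de novo lipogenesis 18 were lower, with a median of -0.09 and quartiles of -0.21 and -0.04. At an unadjusted p under 0.05, 6 were lower, against 4.97% of all genes, and none higher. For 7 members all siH19 libraries were below all siCtrl libraries, against 8.57% of all genes. With siCtrl they summed to 7213 ± 279 FPKM (SD, n = 3), and with siH19 to 6486 ± 227 FPKM (SD, n = 3), which is 89.9% of that. The median transcript length was 3460 nucleotides, so this list differs from the ribosomal one in length as well as in direction.

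*Fasn*, the fatty acid synthase, had the largest difference of the list. It measured 407, 420 and 394 FPKM in siCtrl and 328, 296 and 290 FPKM in siH19, a log2 difference of -0.42 (SE 0.054; limma, adjusted p = 0.152). *Acss2*, which activates acetate, measured 120, 106 and 105 FPKM against 92.3, 86.5 and 81.7 FPKM (log2 -0.34). *Me1*, the malic enzyme that supplies NADPH, measured 466, 441 and 422 FPKM against 384, 344 and 359 FPKM (log2 -0.29). For these 3 genes the groups did not overlap.

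Further members followed with smaller differences. *Acly*, which splits citrate to acetyl-CoA, measured 216, 191 and 204 FPKM in siCtrl and 185, 159 and 160 FPKM in siH19 (log2 -0.28). *Slc25a1*, the mitochondrial citrate carrier, measured 371, 368 and 340 FPKM against 300, 297 and 314 FPKM (log2 -0.24). *Scd1*, the stearoyl-CoA desaturase and the most abundant member, measured 3585, 3289 and 3380 FPKM against 3226, 2994 and 3055 FPKM (log2 -0.14). *Srebf1*, the transcription factor that drives these enzymes, did not share the direction, at 444, 394 and 397 FPKM in siCtrl and 402, 420 and 419 FPKM in siH19 (log2 0.01). None of these members passed the test after adjustment.

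Cholesterol synthesis leaned lower. Of 23 genes 16 were lower and 7 higher (median -0.04), with 7 lower and none higher at an unadjusted p under 0.05. The genes summed to 1982 ± 39.6 FPKM (SD, n = 3) with siCtrl and 1797 ± 68.9 FPKM (SD, n = 3) with siH19, which is 90.6% of that. The median was -0.02 without siCtrl replicate 1, -0.03 without siH19 replicate 3, -0.06 without siH19 replicate 1 and -0.07 without siCtrl replicate 2. *Cyp51*, lanosterol demethylase, measured 418, 393 and 394 FPKM in siCtrl and 344, 308 and 318 FPKM in siH19 (log2 -0.31, SE 0.051, adjusted p = 0.238). *Ebp* and *Lss*, other enzymes of the sterol ring, had log2 differences of -0.30 and -0.22. *Hmgcs1*, an enzyme of the early part of the pathway, measured 159, 159 and 162 FPKM against 170, 162 and 155 FPKM, and the groups overlapped.

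**Figure D3:**
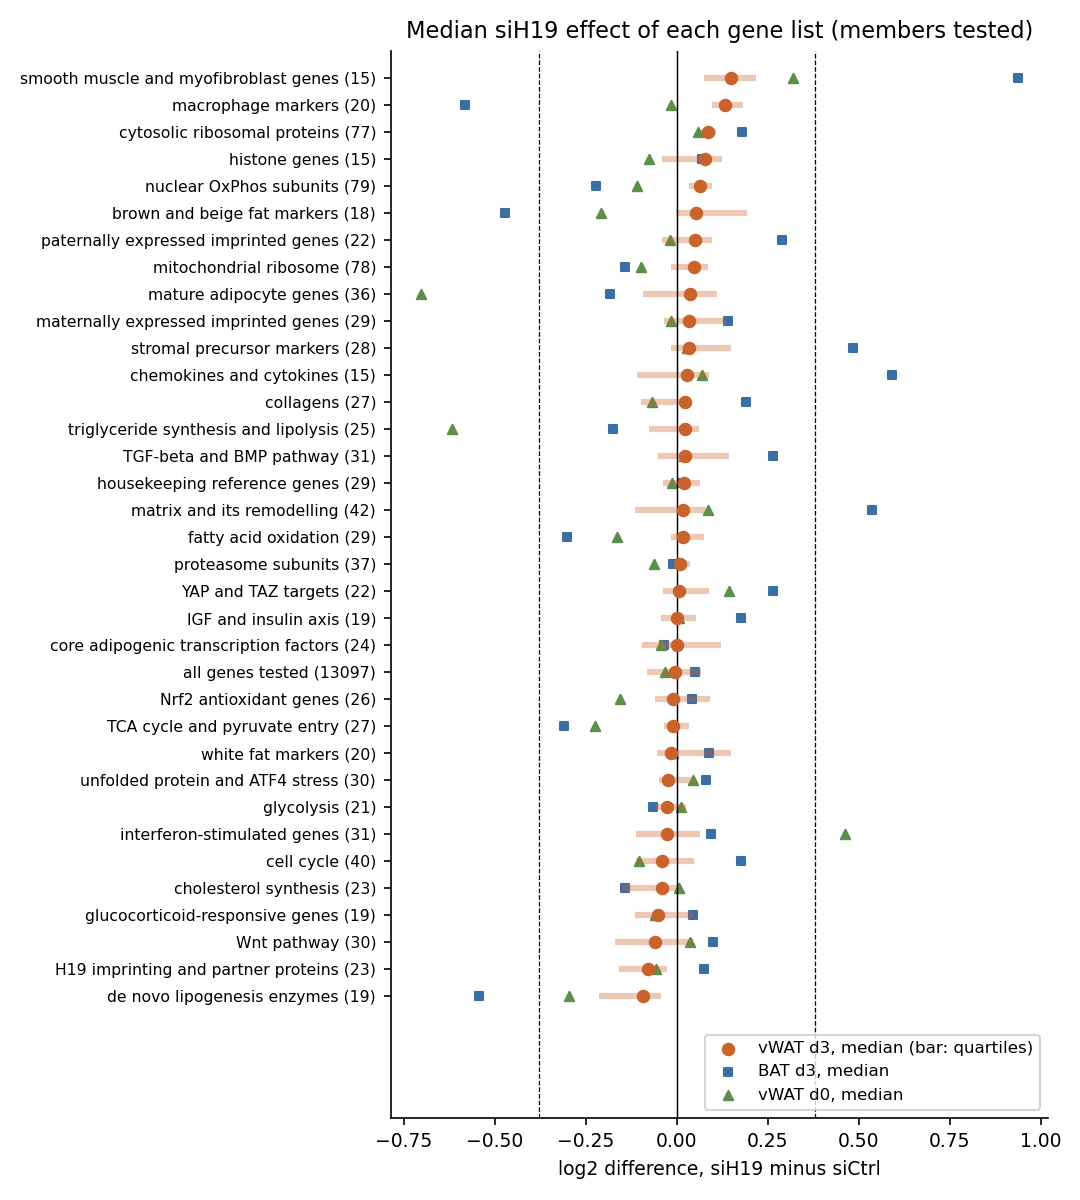
Median log2 difference (x axis), siH19 minus siCtrl, of each gene list with at least 15 members tested (y axis, number tested in brackets). Orange points are vWAT at d3 with bars from the lower to the upper quartile of members, blue squares BAT at d3 and green triangles vWAT at d0; dashed lines mark 1.3-fold, and all vWAT medians at d3 lie between -0.09 and 0.15.

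Mature adipocyte genes as a list showed no drop. Of 36 mature adipocyte genes tested 22 were higher and 14 lower (median 0.04), with 11 higher and 4 lower at an unadjusted p under 0.05. Of the 36, 31 were held (86.1%), against 92.1% of all genes at 100 FPKM or more. *Fabp4* measured 14527, 14709 and 13958 FPKM in siCtrl and 16413, 15458 and 15867 FPKM in siH19 (log2 0.14, SE 0.036, adjusted p = 0.345). *Adipoq* measured 940, 950 and 908 FPKM against 1126, 1024 and 1017 FPKM (log2 0.18). *Car3*, a carbonic anhydrase abundant in fat, measured 4223, 3823 and 3844 FPKM against 4950, 4617 and 4525 FPKM (log2 0.25). In these 3 genes each siH19 library was above each siCtrl library.

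Of the master regulators *Pparg* and *Cebpa* were not lower. *Pparg* measured 72.5, 67.3 and 63.6 FPKM in siCtrl and 86.5, 73.0 and 82.3 FPKM in siH19 (log2 0.24, SE 0.077, adjusted p = 0.395). *Cebpa* was held, at 376, 385 and 379 FPKM against 402, 376 and 388 FPKM. *Cebpb*, an early factor of adipogenesis, measured 53.0, 60.8 and 66.4 FPKM against 53.4, 56.1 and 55.2 FPKM. Of 24 core adipogenic transcription factors 12 were higher and 12 lower. *Ucp2*, an uncoupling protein homologue found in many tissues, was the member of the adipocyte list with the largest negative difference, at 189, 185 and 179 FPKM against 165, 159 and 138 FPKM (log2 -0.26).

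Lipid storage and release were level in most members. Of 25 genes of triglyceride synthesis and lipolysis 17 were higher and 8 lower (median 0.02) and 24 were held. *Pnpla2*, the lipase that opens triglyceride breakdown, measured 1430, 1402 and 1371 FPKM in siCtrl and 1498, 1372 and 1403 FPKM in siH19. *Cidec*, a lipid droplet protein, measured 1637, 1702 and 1520 FPKM against 1736, 1763 and 1650 FPKM. *G0s2*, the inhibitor of *Pnpla2* lipase, was higher without overlap, at 579, 567 and 551 FPKM against 684, 661 and 659 FPKM (log2 0.24, SE 0.032, adjusted p = 0.162). Fatty acid oxidation was likewise level, with 27 of 29 genes held and a median of 0.02. These held counts stand beside 92.1% of all genes at 100 FPKM or more.

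Markers of depot identity showed no common direction. Of 20 white fat markers 9 were higher and 11 lower (median -0.02). Of 35 brown and beige markers only 18 passed the filter, 13 of them higher (median 0.05). *Elovl3*, a fatty acid elongase of brown fat, measured 128, 130 and 114 FPKM in siCtrl and 132, 125 and 126 FPKM in siH19. *Adrb3*, the β3-adrenergic receptor, measured 58.3, 57.1 and 51.1 FPKM against 51.6, 44.1 and 48.0 FPKM. Of 28 stromal precursor markers 19 were higher and 9 lower (median 0.03). *Ly6a*, the stem cell antigen Sca-1, measured 500, 523 and 582 FPKM against 648, 554 and 612 FPKM, which overlapped. The precursor markers *Pdgfra* and *Pdgfrb* averaged lower, at 83.1 and 47.6 FPKM in siCtrl against 79.8 and 44.9 FPKM in siH19.

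Macrophage markers leaned higher in siH19. Of 20 macrophage markers tested 18 were higher in siH19, with a median of 0.13, and 4 were higher and none lower at an unadjusted p under 0.05. Their summed FPKM was 724 to 783 in the siCtrl libraries and 799 to 906 in the siH19 libraries. *Lyz2*, lysozyme, measured 421, 463 and 446 FPKM in siCtrl and 543, 478 and 532 FPKM in siH19 (log2 0.22). *Adgre1*, which encodes the macrophage antigen F4/80, overlapped, at 6.40, 6.15 and 5.83 FPKM against 7.17, 5.90 and 6.81 FPKM. Of the other listed markers *Ptprc* and *Cx3cr1* did not pass the filter, and no listed macrophage marker that was tested stood at 0. In bulk RNA more cells of a type cannot be told apart from more RNA per cell. The part of these cells in the other shifts was not tested. Endothelial, mesothelial and pericyte markers showed no such lean, with 3 of 7, 5 of 14 and 1 of 4 higher and the summed FPKM of each list overlapping between groups.

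Genes of smooth muscle and myofibroblasts also leaned higher, with 14 of 15 higher and a median of 0.15. This median was 0.07 without siCtrl replicate 3 or without siH19 replicate 2 and 0.22 without siCtrl replicate 2. Their summed FPKM was 1926 to 2269 in siCtrl and 2141 to 2535 in siH19, which overlapped. *Mylk*, the myosin light chain kinase, was apart between groups, at 49.2, 47.1 and 46.9 FPKM in siCtrl and 56.4, 55.3 and 56.1 FPKM in siH19 (log2 0.22, SE 0.038, adjusted p = 0.249). *Acta2*, smooth muscle actin, overlapped, at 435, 494 and 412 FPKM against 472, 566 and 464 FPKM.

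**Figure D4:**
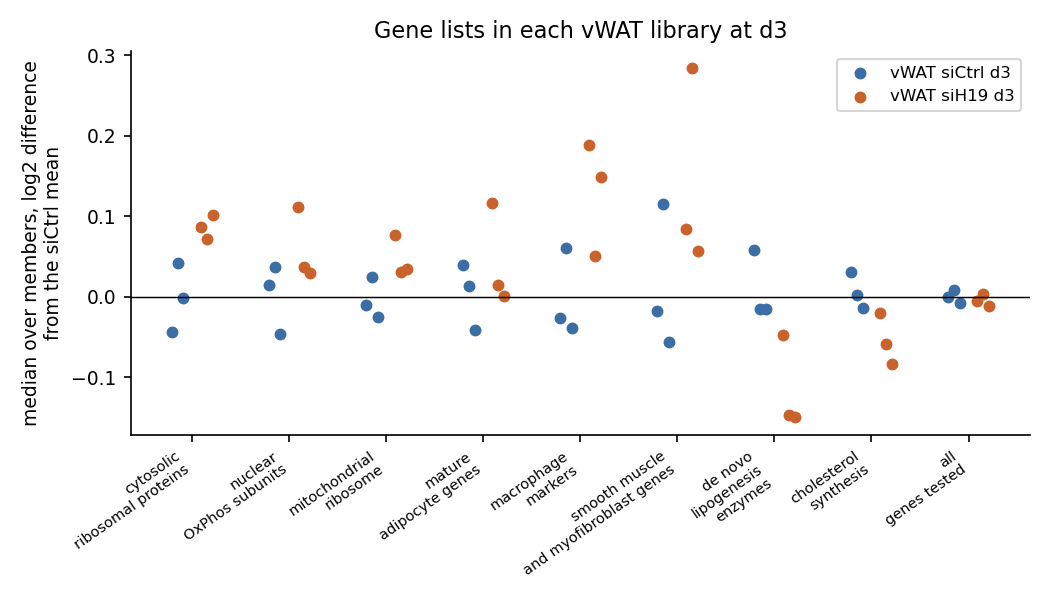
Median over the members of each gene list (x axis) in each vWAT library at d3, as log2 difference from the siCtrl mean (y axis); blue points are siCtrl and orange points siH19 libraries, 3 each. The ribosomal protein, mitochondrial ribosome, lipogenic and cholesterol lists separate the groups, the OxPhos, adipocyte, macrophage and smooth muscle lists overlap, and the median of all genes is near 0 in every library.

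Around *H19* itself no neighbour was called. Of 14 tested genes of the *H19*-*Igf2* and *Kcnq1* neighbourhood 6 were higher and 8 lower, *H19* included. *Igf2* was scarce, at 1.44, 2.48 and 2.82 FPKM in siCtrl and 1.32, 1.502 and 2.43 FPKM in siH19 (log2 -0.23, SE 0.22, adjusted p = 0.782). *Cdkn1c*, a maternally expressed cell cycle inhibitor, measured 23.6, 24.6 and 20.5 FPKM against 27.0, 28.5 and 26.7 FPKM (log2 0.25, adjusted p = 0.383). *Lsp1*, an actin-binding protein gene, measured 31.1, 36.8 and 31.4 FPKM against 21.1, 21.8 and 27.3 FPKM (log2 -0.49, SE 0.11, adjusted p = 0.334). The last pair were apart between groups, in opposite directions.

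No imprinted gene other than *H19* was called. Of 22 paternally expressed genes (PEGs) tested out of 40 listed, 15 were higher and 7 lower (median 0.05), and *Snurf* alone was below an unadjusted p of 0.05, at 92.9, 89.6 and 73.0 FPKM in siCtrl and 116, 110 and 91.3 FPKM in siH19. *Peg3*, a zinc finger gene, measured 4.53, 4.18 and 4.09 FPKM against 4.90, 4.70 and 4.20 FPKM. *Dio3*, the thyroid hormone deiodinase, measured 44.9, 58.2 and 52.8 FPKM against 46.3, 54.1 and 51.9 FPKM, and *Dlk1*, a Notch-like preadipocyte factor, 10.4, 10.9 and 10.1 FPKM against 13.1, 11.7 and 9.80 FPKM. These 3 overlapped between groups. Of 29 maternally expressed genes (MEGs) 17 were higher and 12 lower (median 0.04). The 20 that were held (69.0%, near the 68.5% of all genes) included *Gnas*, at 829, 850 and 816 FPKM against 855, 856 and 808 FPKM.

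Genes for proteins that set or read imprints and that bind *H19* leaned lower in RNA. Of 23 tested 20 were lower in siH19 (median -0.08), with 5 lower and 1 higher at an unadjusted p under 0.05. *Dnmt3a*, a de novo DNA methyltransferase, measured 12.5, 9.86 and 10.8 FPKM in siCtrl and 6.73, 6.78 and 8.45 FPKM in siH19 (log2 -0.54, SE 0.12, adjusted p = 0.310). *Mbd1*, a methyl-CpG binding protein, measured 31.2, 28.1 and 29.0 FPKM against 25.3, 25.6 and 26.3 FPKM (log2 -0.19), also without overlap, and was still held within 1.3-fold. *Ctcf*, which binds the imprinting control region, was held, with a log2 difference of -0.08.

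Named secreted and matrix genes differed in both directions. *Postn*, the matrix protein periostin, measured 188, 165 and 158 FPKM in siCtrl and 269, 240 and 250 FPKM in siH19 (log2 0.57, SE 0.075, adjusted p = 0.159). *Wisp2*, a secreted Wnt-linked protein of precursor cells, measured 25.6, 28.9 and 26.4 FPKM against 39.0, 40.2 and 37.2 FPKM (log2 0.51, SE 0.060, adjusted p = 0.118). *Serpine2*, a protease inhibitor, was lower, at 134, 143 and 146 FPKM against 114, 110 and 113 FPKM (log2 -0.32). *Fn1*, fibronectin, was also lower, at 631, 673 and 706 FPKM against 551, 595 and 524 FPKM (log2 -0.27). Over the whole list of 42 matrix genes 23 were higher and 19 lower, so no common direction was seen. Of 27 collagens 19 were held (70.4%), a share near the 68.5% of all genes.

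*Cxcl5*, *Lcn2* and *Serpina3k* come from different lists and each was lower in siH19. *Cxcl5*, a neutrophil chemokine, measured 14.8, 15.6 and 16.6 FPKM in siCtrl and 8.91, 9.78 and 11.7 FPKM in siH19 (log2 -0.59, SE 0.10, adjusted p = 0.252). *Lcn2*, lipocalin 2, measured 381, 397 and 406 FPKM against 298, 262 and 285 FPKM (log2 -0.49, adjusted p = 0.107). *Serpina3k*, a serpin, measured 5.78, 5.04 and 5.85 FPKM against 3.16, 2.29 and 2.83 FPKM (log2 -0.81, adjusted p = 0.162). The groups were apart for all 3. Of 15 chemokines and cytokines as a list, 9 were higher and 6 lower.

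The named genes nearest to being called were *Cxcl13* and *Ifitm1*, which are outside the lists and were chosen after their values were seen. *Cxcl13*, a B cell chemokine, measured 89.6, 93.7 and 98.8 FPKM in siCtrl and 67.5, 66.3 and 65.3 FPKM in siH19 (log2 -0.50, SE 0.045, adjusted p = 0.0552). *Ifitm1*, an interferon-induced membrane protein, measured 21.9, 22.6 and 21.2 FPKM against 15.02, 15.4 and 15.3 FPKM (log2 -0.49, SE 0.048, adjusted p = 0.0667). Both were called when genes had to reach 5 FPKM (adjusted p = 0.0492 for each). Neither was called in the other settings tried, with adjusted p up to 0.350 for *Cxcl13* and 0.396 for *Ifitm1*. With the spread taken from all 24 libraries neither was called, and *Postn* (adjusted p = 0.00104), *Serpina3k* (0.00330), *Wisp2* (0.00935) and *Cxcl5* (0.0274) were. In that fit 20 genes passed, 8 higher and 12 lower.

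Among signalling genes the Wnt pathway leaned lower. Of 30 tested 19 were lower (median -0.06), with 7 lower and 1 higher at an unadjusted p under 0.05. The median was -0.02 without siCtrl replicate 2, -0.03 without siH19 replicate 3 and -0.10 without siH19 replicate 2. *Frzb*, a secreted Wnt antagonist, measured 6.71, 8.36 and 7.74 FPKM in siCtrl and 5.17, 5.75 and 6.32 FPKM in siH19 (log2 -0.35), and *Sfrp1*, another antagonist, 246, 241 and 247 FPKM against 227, 222 and 230 FPKM (log2 -0.11). Both were apart between groups, and the member that was higher at that p was *Wisp2*. In the IGF and insulin axis 4 members were higher and none lower at an unadjusted p under 0.05, led by the binding protein *Igfbp2* at 16.1, 17.0 and 14.7 FPKM against 21.6, 20.9 and 18.6 FPKM (log2 0.34), while the median over 19 genes was 0.001.

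Several programs had medians near 0. Cell cycle genes had a median of -0.04, with 28 of 40 held (70.0%), close to the share of all genes. The unfolded protein response had a median of -0.02, with 27 of 30 held, and 36 of 37 proteasome genes were held. Glycolysis had 17 of 21 held and Nrf2 antioxidant genes 23 of 26. Of all genes 92.1% were held at 100 FPKM or more and 80.9% at 10 to 100 FPKM. Interferon-stimulated genes, which can respond to transfected RNA, had 12 higher and 19 lower of 31. Of the 31, 14 were held (45.2%), against 68.5% of all genes and 50.1% of genes below 10 FPKM. Their median level was 7.62 FPKM. Their median log2 difference was -0.03 and ran from -0.12 to 0.04 when 1 library was left out, so its sign was not stable. The RNA interference machinery itself had 9 of 12 genes held.

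Genes whose 3′ UTR holds a match to an siRNA seed had slightly lower medians than the others for all 3 siRNAs. For siH19#3, 905 of the genes tested with a 3′ UTR (7.70%) held GAACACC on the transcript strand, with a median log2 difference of -0.02 against -0.004 for the 10843 without it, and 4.31% of them were lower at an unadjusted p under 0.05 against 4.99%. For siH19 the match AAUCAAG was held by 1164 genes (9.91%; median -0.01 against -0.004; lower 5.15% against 4.91%). For siH19#2 the match UCUCCGU was held by 472 genes (4.02%; median -0.02 against -0.004; lower 5.30% against 4.92%). The share higher at an unadjusted p under 0.05 was smaller with the match for each siRNA. It was 4.09% against 5.18% for siH19#3, 3.61% against 5.26% for siH19 and 4.24% against 5.13% for siH19#2. The part of the seeds in these differences was not tested. Only the transcript strand was searched.

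The effect in vWAT at d3 differed from that in BAT at d3 for many genes. In a limma fit of the 12 libraries at d3, the effect of siH19 was higher in vWAT than in BAT for 485 of 13762 genes (3.52%) and lower for 966 (7.02%). With the libraries rescaled by median ratios these counts were 757 and 635, and the median difference over all genes moved from -0.06 to 0.003. In BAT 1071 of 12500 genes were called by the rule used for vWAT. Of the 1009 of them tested in vWAT, 709 (70.3%) were held there within 1.3-fold, a share near the 68.5% of all genes tested in vWAT. The depots also differed in treatment, since BAT cells were differentiated with indomethacin and triiodothyronine and then kept in triiodothyronine in place of rosiglitazone, so depot and culture medium cannot be told apart.

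Respiration genes were among those that differed. For 56 of 79 nuclear OxPhos genes the effect was higher in vWAT and for none lower, against 3.52% and 7.02% of all genes. The list medians were 0.06 in vWAT and -0.22 in BAT. Of the TCA cycle genes 22 of 27 were higher in this sense, and of fatty acid oxidation genes 21 of 29, against 2 lower. After rescaling 67 of the OxPhos genes passed. Macrophage markers moved along with this, with 11 of 20 called and medians of 0.13 in vWAT and -0.58 in BAT, and their part in it was not tested.

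Lipogenic enzymes had the same sign in both depots and a larger size in BAT. Of 19 genes 11 differed, all with the effect less negative in vWAT, against 3.52% of all genes with a higher effect there. The medians were -0.09 in vWAT and -0.54 in BAT. The log2 effect on *Fasn* was -0.42 in vWAT and -1.22 in BAT, a difference of 0.80 (SE 0.098, adjusted p = 0.00170). *Thrsp*, a lipogenic protein, had -0.12 in vWAT and -1.81 in BAT, a difference of 1.68 (adjusted p = 0.00135). *Car3* differed in sign, at 0.25 and -0.73, a difference of 0.97 (adjusted p = 0.00115). *Elovl3* was level in vWAT (0.04) and at -0.68 in BAT (difference 0.73, adjusted p = 0.00186).

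Matrix and contractile genes differed the other way. Of 42 matrix genes 26 had a lower effect in vWAT and none a higher one, against 7.02% and 3.52% of all genes. The medians were 0.02 in vWAT and 0.54 in BAT. Smooth muscle genes had 8 of 15 lower, with medians of 0.15 and 0.94. *Acta2* had a log2 effect of 0.16 in vWAT and 1.11 in BAT (difference -0.94, adjusted p = 0.00852). *Serpine2* had -0.32 and 0.57 (difference -0.89, adjusted p = 0.000642), and *Cxcl5* -0.59 and 0.72 (difference -1.31, adjusted p = 0.00151), so both had opposite signs. Of precursor markers 12 of 28 had a lower effect in vWAT, and of PEGs 5 of 22, among them *Impact* (-0.05 against 0.33, difference -0.38, adjusted p = 0.00300). The maternally expressed lncRNA *Rian* was held in vWAT (-0.06) and at 1.01 in BAT (difference -1.08, adjusted p = 0.00196). Ribosomal protein genes had 7 of 77 lower, a share near the 7.02% of all genes. After rescaling 1 of them was higher and 1 lower.

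Within vWAT the effect at d3 differed from that at d0 for fewer genes. In a fit of the 12 vWAT libraries the effect was higher at d3 than at d0 for 203 of 13948 genes (1.46%) and lower for 38 (0.272%). Mature adipocyte genes were among the former, with 27 of 36 higher and none lower. Their median log2 effect was -0.70 at d0 and 0.04 at d3. In siCtrl at d0 *Fabp4* was already at 2519 to 2560 FPKM and *Adipoq* at 242 to 258 FPKM. Genes of triglyceride synthesis and lipolysis had 17 of 25 higher, with medians of -0.62 and 0.02. Lipogenic enzymes had 4 of 19 higher (medians -0.30 and -0.09). OxPhos genes had only 2 of 79 higher (medians -0.11 and 0.06), a share near the 1.46% of all genes.

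The same named genes that were slightly higher at d3 were lower at d0. *Fabp4* had a log2 effect of -0.80 at d0 and 0.14 at d3, a difference of 0.95 (SE 0.069, adjusted p = 0.000282). *Adipoq* had -0.58 and 0.18 (difference 0.76, adjusted p = 0.000746), and *Car3* -0.84 and 0.25 (difference 1.08, adjusted p = 0.000282). *G0s2* had -0.45 and 0.24 (difference 0.69, adjusted p = 0.000161). *Pparg* had -0.46 and 0.24 (difference 0.70, adjusted p = 0.00527), and *Cebpa* -0.41 and 0.03 (difference 0.44, adjusted p = 0.00452). Among lipases *Lipe*, hormone-sensitive lipase, had -0.96 at d0 and 0.07 at d3 (difference 1.04, adjusted p = 0.000282). Macrophage markers did not share this, with none of 20 called and medians of -0.02 at d0 and 0.13 at d3.

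**Figure D5:**
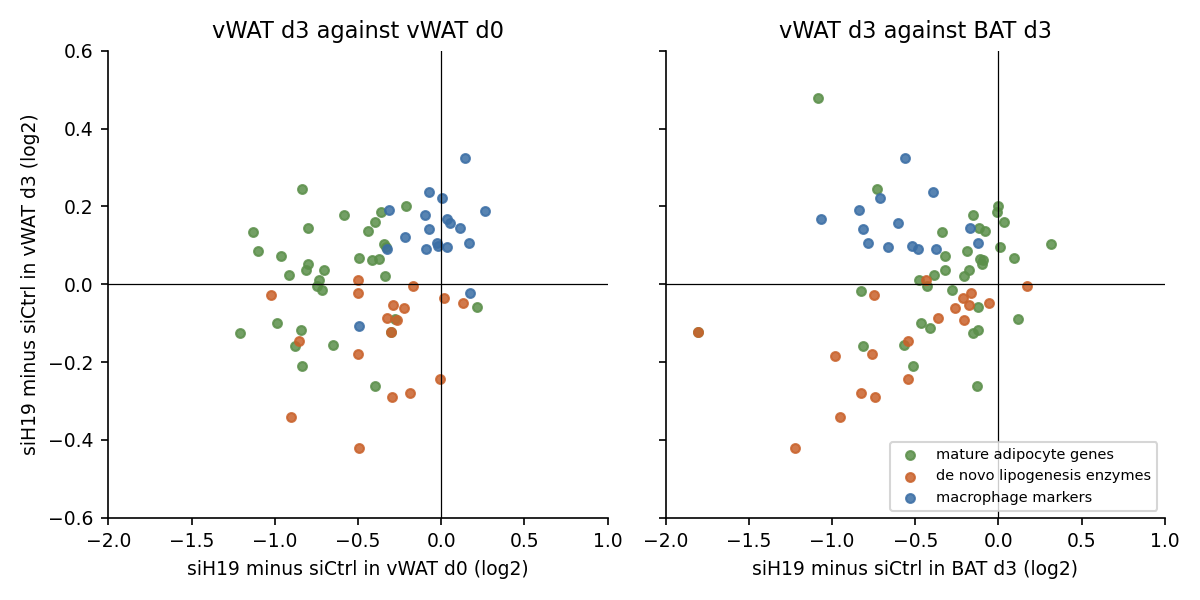
Log2 effect of siH19 in vWAT at d3 (y axis) against that in vWAT at d0 (left, x axis) and in BAT at d3 (right, x axis) for members of 3 lists, 1 point per gene. Mature adipocyte genes spread to the left of 0 at d0 (median -0.70) and lie around 0 at d3 (median 0.04); macrophage markers are left of 0 in BAT (median -0.58) and above 0 in vWAT at d3 (median 0.13).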

How the data were processed

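RNA-Seq of 6 vWAT cultures at d3 was compared, 3 per group, within a table of 24 libraries. The authors trimmed and aligned reads to GRCm38 with TopHat2 2.0.10 and computed expression with Cufflinks 2.2.1 on Ensembl models within QuickNGS, per the labels. The authors deposited 1 table without counts, whose values were taken as FPKM. It gives no read counts, so limma 3.58.1 in R 4.3.3 with an intensity trend was run on log2(FPKM + 1) in place of DESeq2, which the authors used. Testing required at least 1 FPKM in 3 or more of the 6 libraries, and p-values were Benjamini-Hochberg adjusted over all of them. Both interactions were fitted on 12 libraries with the same filter. The scripts were tested on simulated data. Groups came from the sample labels, and 0 sample columns were left unused. Depth was estimated relative to 1 library from the steps of low values.

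The 44 gene lists and the comparison were chosen with earlier results of these data known. Genes were named by rule: called genes, in each list the members with the largest difference each way and the 2 most abundant, the most abundant held genes and genes that the study names. *Acly*, *Acss2*, *Adgre1*, *Cx3cr1*, *Ebp*, *Fn1*, *Hmgcs1*, *Impact*, *Lipe*, *Lsp1*, *Lss*, *Mylk*, *Ppia*, *Ptprc*, *Rian*, *Rps12*, *Serpine2*, *Slc25a1* and *Zic1* are list members chosen after their values were seen. Some genes that the rule covers are not reported here. siRNA sites were matched to GENCODE transcripts of GRCm38.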

Additional observations from a re-analysis of the deposited data

Results flagged for a closer look

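Differences between settings passed the test of the difference itself for 1451 genes between the depots at d3 and for 241 genes between the days in vWAT. In the depot comparison the effect in vWAT minus that in BAT was 0.80 for *Fasn*, 1.68 for *Thrsp*, 0.97 for *Car3* and 0.73 for *Elovl3* on the log2 scale. It was -0.94 for *Acta2*, -0.89 for *Serpine2*, -1.31 for *Cxcl5*, -0.38 for *Impact* and -1.08 for *Rian*. In the day comparison the effect at d3 minus that at d0 was 0.95 for *Fabp4*, 0.76 for *Adipoq*, 1.08 for *Car3*, 0.69 for *G0s2*, 0.70 for *Pparg*, 0.44 for *Cebpa* and 1.04 for *Lipe*. Groups of 3 libraries are too small for a check of single libraries that stand apart.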

How the results depend on the processing

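The count of 4 called genes rested on few libraries and on how spread was estimated. It was 20 with the spread from all 24 libraries, 228 at an unadjusted p under 0.05 with the 1.3-fold minimum, and 1 to 6 when 1 library was left out (2 without siCtrl replicate 1 and 1 without siCtrl replicate 2). Under the other settings of pseudocount, filter, scaling, trend and fold it was 4 or 5. *H19* kept its direction throughout and lost its call at a pseudocount of 0.1 (adjusted p = 0.0563), without the filter (0.0663), with the replicate block (0.143) and without siCtrl replicate 1, 2 or 3 (0.0808, 0.106 and 0.0523). *Gm24494* lost its call with the spread of all 24 libraries and with the block. *Gm26387* lost it there, without the filter and without any 1 library but siCtrl replicate 1, and *Snora70* there and without siCtrl replicate 1 or 2 or siH19 replicate 3. The cause was not tested. Over all genes tested, same-numbered libraries did not deviate together (correlations of 0.067, 0.027 and -0.053). With 3 libraries per group this cannot settle whether the numbers pair the samples. With the replicate block 0 genes were called by limma (smallest adjusted p 0.0600, 1280 genes at an unadjusted p under 0.05), the depot difference passed for 1041 genes and the day difference for 192.

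The genes held within 1.3-fold numbered 7922 to 8060 without 1 library and stayed within 1.5 times of 8971 elsewhere. The depot difference passed for 911 to 1137 genes without 1 library (911 without siH19 replicate 1, 933 without siCtrl replicate 3) and the day difference for 127 to 187 (147 without siCtrl replicate 2, 136 without siCtrl replicate 3, 127 without siH19 replicate 1). After rescaling 54.4% of the depot differences were positive, against 33.4% as deposited. Of 494 list medians under alternatives 24 moved by more than the spread between replicates. Over all settings the median stayed between 0.062 and 0.11 for ribosomal proteins, 0.039 and 0.082 for OxPhos, and -0.12 and -0.079 for lipogenic enzymes, while that of mature adipocyte genes ran from -0.009 to 0.069. Leave-one-out medians ran from 0.01 to 0.10 for brown and beige markers, 0.03 to 0.08 for precursor markers and 0.01 to 0.07 for PEGs. Of genes below 10 FPKM 50.1% were held, and the part of depth in this was not tested.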

Other observations

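Some gene groups outside the comparisons above held single members with separated libraries. Among glutathione transferases *Gstm1* measured 106, 109 and 101 FPKM in siCtrl and 130, 122 and 122 FPKM in siH19 (log2 0.24, SE 0.047, limma, adjusted p = 0.284). The peroxisomal thiolase *Acaa1b* measured 18.3, 17.5 and 18.7 FPKM against 13.6, 14.9 and 14.3 FPKM (log2 -0.33, adjusted p = 0.251). *Dpt*, the matrix protein dermatopontin and a marker of fat stroma, measured 101, 93.8 and 89.2 FPKM against 135, 117 and 108 FPKM (log2 0.33, adjusted p = 0.361). *Vcan*, the proteoglycan versican, measured 38.9, 41.1 and 41.1 FPKM against 26.6, 35.7 and 28.4 FPKM (log2 -0.41, adjusted p = 0.358).

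Genes outside the lists, chosen after their values were seen, also had separated libraries. *Fmo2*, a flavin monooxygenase, measured 62.1, 54.3 and 48.3 FPKM in siCtrl and 91.4, 89.1 and 82.9 FPKM in siH19 (log2 0.67, SE 0.093, limma, adjusted p = 0.162). *Aspn*, the matrix protein asporin, measured 4.92, 4.65 and 4.11 FPKM against 7.25, 7.68 and 7.62 FPKM (log2 0.62, adjusted p = 0.152). *Saa2*, the acute-phase serum amyloid A2, measured 12.03, 15.7 and 16.3 FPKM against 8.03, 4.69 and 6.85 FPKM (log2 -1.07, adjusted p = 0.269). *Tnfsf11*, the cytokine RANKL, measured 2.12, 1.96 and 2.56 FPKM against 0.967, 0.807 and 0.960 FPKM (log2 -0.75, adjusted p = 0.165). *Aspn*, *Saa2* and *Tnfsf11* were among the 20 genes called with the spread of all 24 libraries, and *Fmo2* was not.

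*Crisp1* and *Spink8*, markers of epididymal epithelium, varied between libraries of 1 group. *Crisp1* measured 5.73, 0.748 and 2.16 FPKM in siCtrl and 2.41, 7.25 and 13.8 FPKM in siH19. *Spink8* measured 3.49, 0.140 and 0.261 FPKM against 0.341, 1.55 and 1.02 FPKM.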
